A study of Rattus norvegicus with 9 samples.

Results

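Liver RNA of 3 rats labelled model was compared with liver RNA of 3 rats labelled control. They make up 6 of the 9 arrays of the study, and the arrays were assigned to their groups by title. All animals were Wistar rats, labelled male and weighing 180 to 220 g, and the 3 livers of a group came from 3 rats drawn at random out of 12. The treatment that made the model rats a model, their age and the time of sampling are not given in the sources used here, so model names a group and not a disease. The 3 remaining arrays came from rats labelled as a drug group given 7-P. They entered the shared normalization, the signal filter, the choice of the brightest probe set and the shared estimate of spread. They also entered the fits with a further term described below. Signals were deposited on a linear scale from a one-colour Affymetrix rat array and were compared here as log2 signals, quantile normalized over all 9 arrays. Probe sets with a mean log2 signal of at least 2.82, the 40th percentile, were kept. This left 18625 of 31042 probe sets and 10432 named genes, each read by its brightest probe set.

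Most of the liver's mass is hepatocytes, which secrete plasma proteins, burn fatty acids and amino acids in their mitochondria, and clear drugs and toxins through oxidation followed by conjugation. Lining the blood sinusoids are Kupffer cells, the resident macrophages of the liver. When they or incoming leukocytes sense microbial products or injured cells through Toll-like receptors, the transcription factor NF-kB and cytokines such as interleukin-1 are engaged, and hepatocytes shift their secretion towards acute-phase proteins. In a whole-tissue sample, fewer cells of a type and less RNA per cell cannot be told apart.

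The arrays differed in ways other than group. The ratio of the 3' to the 5' Gapdh control signal, which is higher where less of the 5' end was measured, was 1.52, 3.14 and 3.07 in the control arrays. In the model arrays it was 4.09, 12.7 and 9.77, and the groups did not overlap. The means were 2.58 ± 0.915 and 8.85 ± 4.37 (SD, n = 3 each), with a two-sided exact permutation p of 0.1, the smallest that 3 against 3 arrays can give, and 0.4 after Benjamini-Hochberg adjustment over 4 array measures. The beta-actin ratio was 4.23, 8.41 and 7.59 in control and 12.8, 10.7 and 7.31 in model arrays, which overlapped (exact p = 0.3). The hexokinase ratio was 1.42, 3.2 and 1.03 in control and 7.85, 0.796 and 0.498 in model arrays. It was thus highest in model 1 and lowest in models 2 and 3. The 2% trimmed mean of the deposited signals was 80.4, 34.1 and 66.6 in control and 43.4, 34.5 and 38.0 in model arrays (exact p = 0.4). Because the Gapdh ratio moved with the group, class and gene differences are also given from a fit with the log2 Gapdh ratio of each array as a further term, called the Gapdh term below. That fit covered all 9 arrays, so the drug arrays, with ratios of 1.31, 9.2 and 8.71, also bear on the values with the term. Of the 122 genes named in the text, 63 moved by over 1.5 times or changed sign with the term, 51 to a smaller and 12 to a larger difference, and the values are given where the genes are described.

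**Figure D1:**
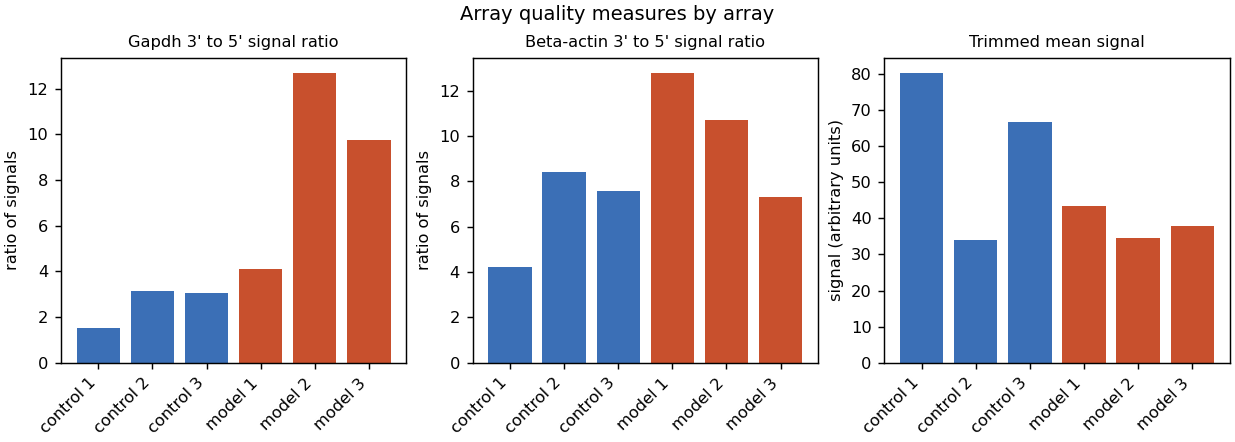
Each bar is 1 array, blue for control and orange for model, and the panels show the 3' to 5' signal ratio of the Gapdh and beta-actin control probe sets and the 2% trimmed mean of the deposited signals in arbitrary units. The Gapdh ratio of the model arrays, 4.09 to 12.7, lies above that of the control arrays, 1.52 to 3.14, while the other measures overlap.

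Control 2 stood apart from the other 5 arrays in sex-linked transcripts. The log2 signal of Xist, the RNA of the inactive X chromosome, was 2.65 in control 2 and between 8.06 and 10.9 in the other 5. The Y-linked gene Eif2s3y was at 6.99 in control 2 and at 2.53 or below in the other 5. Cyp2c11, the male-predominant P450 of rat liver, was at 11.3 in control 2 and at 5.22 or below elsewhere, and the female-predominant Cyp2c12 was at 5.82 against 11.9 or more. The group difference of Cyp2c11 was -1.99, 0.68 without control 2 and -4.99 with the Gapdh term. In 5 of the 6 arrays these transcripts therefore went against the label male. Where leaving out control 2 moved a class median or gene described below by over 1.5 times, the value without it is given. Of the hepatocyte markers that define the labelled tissue, 12 of the 12 on the array passed the filter. Their summed signal was 46960 to 49950 in control and 39620 to 48530 in model arrays, and albumin (Alb) was at 12.72 in each control array and at 12.95, 12.87 and 12.87 in the model arrays. Of the 12 markers 5 were higher and 7 lower in model livers, with log2 differences from -1.02 to 0.46. Their median was -0.14, and -0.09 with the Gapdh term.

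At the level of single probe sets no difference between model and control livers passed the test. With limma, 0 of 18625 probe sets (0%) had an adjusted p under 0.05, the smallest adjusted p was 0.219, and 2245 had an unadjusted p under 0.05, 1213 of them higher and 1032 lower in model livers. A per-probe-set test without moderation also gave 0 adjusted calls. Every gene named below therefore failed the correction, and directions are descriptions of these 6 arrays. The sizes were wide all the same. The median absolute log2 difference over genes was 0.39 with a median standard error of 0.35, the 90th percentile of the size was 1.02, and 90 genes differed 4-fold or more. A gene is called set apart when all 3 model arrays lay above, or all below, all 3 control arrays. By that count 1345 genes (12.9%) were set apart higher in model livers and 1245 (11.9%) lower. At an unadjusted p under 0.05 there were 739 higher genes (7.08%) and 631 lower genes (6.05%), and 576 (5.52%) were 2-fold or more higher and 528 (5.06%) 2-fold or more lower.

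How a gene was read also limited single values. Among 2654 genes with several passing probe sets, the brightest 2 had the same sign in 58.7%, and in 73.9% of the 207 genes whose brightest probe set differed 2-fold or more. Of the genes named below, Ddc (1.10), Plin2 (0.32), Slc39a14 (-0.57), Cps1 (-2.39), Abat (0.04), Sc5d (-0.15), Stard4 (-0.39), Glul (-2.07) and Zfp292 (-0.38) each had a dimmer probe set with the opposite sign, whose log2 difference stands in brackets. Others had a dimmer probe set of the same sign but a much smaller difference, among them Hnrnpa1 (0.003), Ccnl2 (0.002), Cybb (0.15), Acaa2 (-0.17), Mnda (0.45) and Sf3b1 (0.51). In some, such as Ptprc (2.14) and Pik3cd (1.41), a dimmer probe set differed more. With the signals left unnormalized the median of all genes was lower by 0.434 in model livers, and 9.17% of the probe sets at an unadjusted p under 0.05 were higher, against 54% after quantile normalization. That share was 46.5% with median centring and 67% with scaling to 1 trimmed mean, where the median of all genes moved to -0.104 and 0.126. All differences below are relative to the bulk of genes, whose median was 0.01.

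Of the 51 gene classes described, 18 had at least 10 measured genes, a median difference of at least 0.3 in size, and a class score in every model array beyond that of every control array. The class score of an array is the median, over the genes of the class, of the log2 signal less the mean of the control arrays. These criteria were chosen after the class values were seen, and the classes share genes in some cases. Some classes met the last criterion narrowly. For Kupffer cells and macrophages the nearest scores were 0.401 in control 3 and 0.406 in model 3. They were -0.066 and -0.090 for mitochondrial ribosomes, -0.079 and -0.099 for glycolysis, and -0.171 and -0.199 for the tricarboxylic acid cycle, control before model. Higher classes were led by macrophage and phagocyte genes, cholesterol synthesis, iron handling, Toll-like receptor signalling and splicing factors. Lower classes were led by mitochondrial energy metabolism, mitochondrial ribosomes and enzymes that act on foreign compounds.

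**Figure D2:**
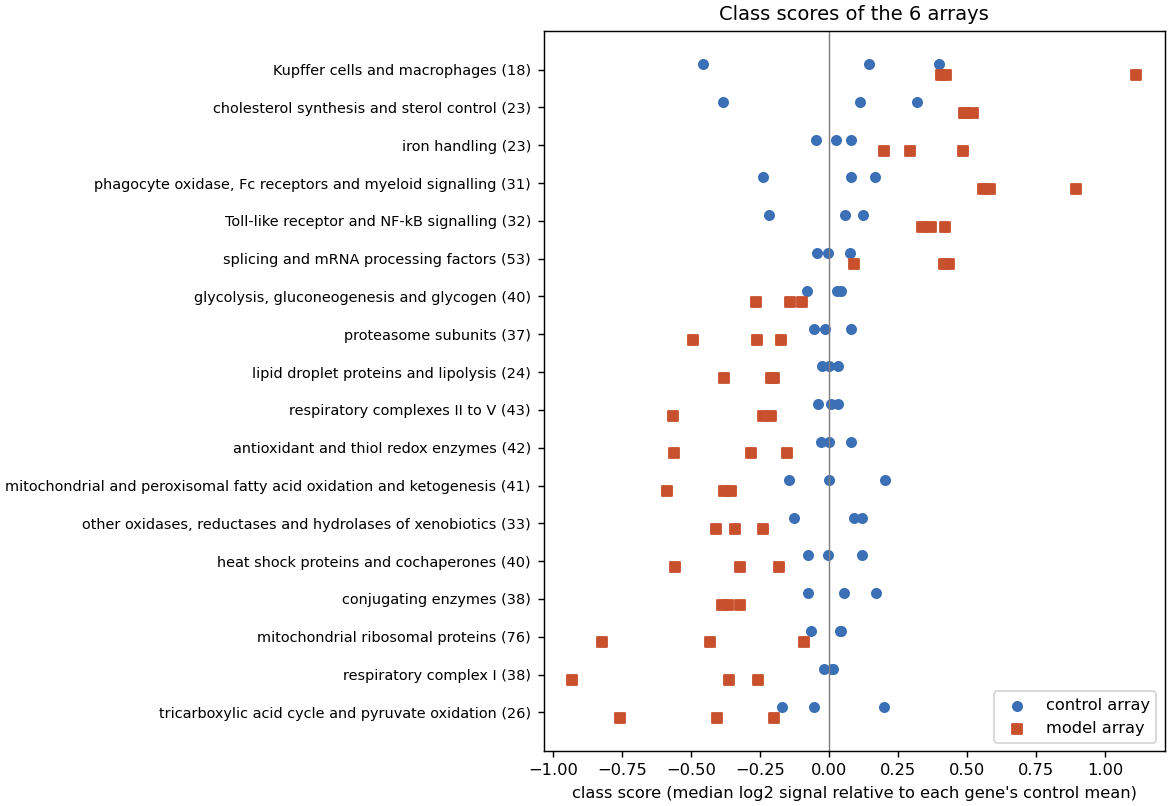
Each row is 1 gene class with the number of measured genes in brackets, blue circles are the 3 control arrays and orange squares the 3 model arrays, and the horizontal axis is the class score in log2 units relative to the control mean of each gene. The model arrays lie to the right of the control arrays for 6 classes, among them phagocyte genes at 0.56 to 0.90 against -0.24 to 0.17, and to the left for 12, among them the tricarboxylic acid cycle at -0.75 to -0.20 against -0.17 to 0.20.

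Genes of phagocytes were almost all higher in model livers. Of 31 measured genes for the phagocyte oxidase, Fc receptors and myeloid signalling, 30 were higher, 14 were set apart (45.2%, against 12.9% of all genes), 11 had an unadjusted p under 0.05 and 9 were 2-fold or more higher. The class median was 0.41, and 0.44 without control 2 and 0.76 with the Gapdh term. Siglec5, which binds sialic acids on myeloid cells, was at 3.54, 4.44 and 4.54 in control and at 6.84, 7.20 and 6.63 in model livers. The groups were separated by more than 2 log2 units, a difference of 2.71 ± 0.34 (SE). Ncf4, a subunit of the phagocyte NADPH oxidase, was at 1.51, 1.12 and 4.30 against 5.51, 5.04 and 4.74, with a control mean below the filter level. Another oxidase subunit, Cybb, was at 5.90, 6.01 and 6.58 against 7.06, 7.49 and 6.72. Ptprc, the pan-leukocyte antigen CD45, was at 4.52, 3.72 and 4.26 against 5.61, 5.96 and 5.32, a difference of 1.46 ± 0.29. The leukocyte lipid kinase Pik3cd differed by 1.22, the Fc receptor signalling chain Fcer1g by 1.10, the leukocyte integrin Itgal by 1.10, the myeloid transcription factor Irf8 by 0.98 and the kinase Syk by 0.90, and all 5 were set apart. Irf8 was at 0.57 with the Gapdh term.

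Markers of resident macrophages were higher as well, but less evenly. Of 18 measured Kupffer cell and macrophage markers 14 were higher and 4 lower. Of these, 6 were set apart higher (33.3%, against 12.9% of all genes) and 1 lower (5.56%, against 11.9%). The class median of 0.66 was 0.42 without control 2. Cd5l, a protein secreted by tissue macrophages, was at 7.12, 6.25 and 7.30 in control and at 8.55, 8.98 and 8.36 in model livers. The haemoglobin scavenger receptor Cd163 was at 4.87, 4.73 and 4.53 against 5.64, 6.27 and 5.98. Both were set apart, as was the Fc receptor Fcgr1a with a difference of 0.94. In contrast the general macrophage genes C1qa (-0.00) and Lyz2 (-0.01) had no difference in their means, though C1qa was at -0.33 without control 2 and at 0.58 with the Gapdh term, and Lyz2 at -0.06 and 0.10. The Kupffer cell lectin Clec4f (0.91) overlapped between the groups. The summed signal of the list was 2552 to 3233 in control and 3133 to 4955 in model arrays. Whether macrophages were more numerous or carried more of these transcripts was not tested.

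**Figure D3:**
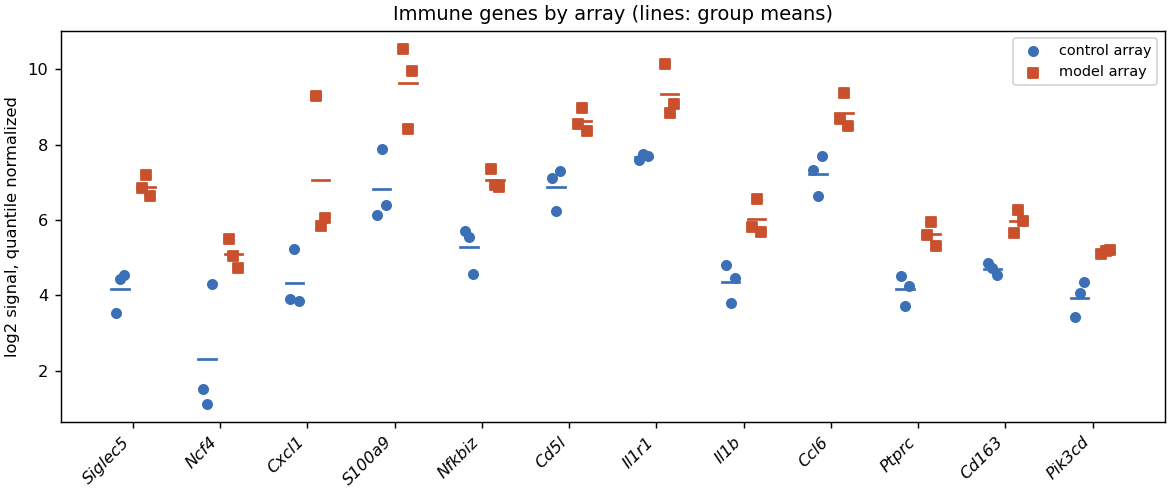
Log2 signals, quantile normalized, of 12 immune genes in the 3 control arrays (blue circles) and the 3 model arrays (orange squares), with lines at the group means. In each gene shown all 3 model arrays lie above all 3 control arrays, by the widest margin in Siglec5 (6.63 to 7.20 against 3.54 to 4.54).

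Neutrophil markers were few and uneven. Of 15 listed genes 8 were on the array and 5 passed the filter, of which 3 were higher. S100a9, a calcium-binding protein that neutrophils carry in large amounts, was at 6.14, 7.89 and 6.40 in control and at 10.54, 8.42 and 9.96 in model livers, a difference of 2.83 ± 0.94. Its partner S100a8 was at 4.48, 6.22 and 4.90 against 9.09, 6.03 and 8.25, so model 2 overlapped the controls. The granulocyte growth factor receptor Csf3r differed by 1.66, also with overlap and with a control mean below the filter level, and by 1.05 with the Gapdh term. Lcn2, made by neutrophils and by stressed hepatocytes, was at 3.33, 3.99 and 6.06 against 9.25, -0.18 and 1.94, high in model 1 alone, and its difference turned from -0.79 to 1.40 with the Gapdh term.

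Some interleukin-1 and chemokine genes were higher. Of 45 measured cytokines, chemokines and receptors 32 were higher, 8 were set apart higher (17.8%, near the 12.9% of all genes) and 2 lower, with a median of 0.20, and 0.32 with the Gapdh term. Cxcl1, the neutrophil-attracting chemokine, was at 3.91, 5.24 and 3.85 in control and at 9.29, 5.85 and 6.05 in model livers. The groups did not overlap, but model 1 stood far above the other 2. The interleukin-1 receptor Il1r1 was at 7.59, 7.76 and 7.71 against 10.13, 8.85 and 9.08, and its ligand Il1b at 4.80, 3.81 and 4.46 against 5.80, 6.56 and 5.70. Both differed by 1.67, with standard errors of 0.37 and 0.33. The macrophage chemokine Ccl6 differed by 1.63. The B cell chemokine Cxcl13 was the reverse, at 4.76, 5.72 and 4.62 against 3.29, 4.38 and 3.60, and differed by -2.08 with the Gapdh term.

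The Toll-like receptor and NF-kB class had 26 of 32 measured genes higher, with a median of 0.38, and 0.24 with the Gapdh term. In it 10 were set apart higher (31.2%, against 12.9% of all genes) and 2 lower (6.25%, against 11.9%). Nfkbiz, a nuclear regulator of NF-kB that is itself induced by interleukin-1 and Toll-like receptors, was at 5.71, 5.54 and 4.57 in control and at 7.34, 6.92 and 6.89 in model livers. Its difference of 1.78 ± 0.33 was 1.78 with the Gapdh term too. The kinases of the pathway Chuk (0.83) and Ikbkb (0.80) were set apart, as was Casp1 (0.94), the protease that matures interleukin-1. Chuk was at 0.19 and Ikbkb at 0.52 with the Gapdh term. Tlr2, the receptor for bacterial lipoproteins, differed by 1.78 but overlapped, because control 1 lay at 3.76 and model 2 at 3.54. Of 39 measured p53 targets and apoptosis regulators 25 were lower, with a median of -0.16, and -0.02 with the Gapdh term. The 6 set apart higher (15.4%) and 4 set apart lower (10.3%) were near the shares of all genes, 12.9% and 11.9%. Among them the NF-kB target Birc3 (1.09) and the necroptosis kinase Ripk3 (0.91) were set apart higher and the nuclease Aen (-0.73) lower.

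Promoters of 2 of these genes are shown because they hold a stretch of letters that NF-kB can bind. The motif searched on both strands was GGANTTTCC, and matches are in capitals. Sequences of 300 bases around the gene start are from RefSeq, build GRCr8. The promoter of Nfkbiz lies on chromosome 11 at chr11:58251471-58251770, plus strand, and that of Cxcl1 on chromosome 14 at chr14:17479272-17479571, minus strand.
Nfkbiz: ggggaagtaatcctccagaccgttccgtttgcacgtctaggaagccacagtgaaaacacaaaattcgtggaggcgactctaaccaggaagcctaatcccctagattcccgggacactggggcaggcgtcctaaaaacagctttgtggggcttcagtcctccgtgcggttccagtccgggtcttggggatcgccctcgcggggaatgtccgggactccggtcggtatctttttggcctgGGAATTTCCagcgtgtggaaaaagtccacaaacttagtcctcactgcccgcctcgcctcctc
Cxcl1: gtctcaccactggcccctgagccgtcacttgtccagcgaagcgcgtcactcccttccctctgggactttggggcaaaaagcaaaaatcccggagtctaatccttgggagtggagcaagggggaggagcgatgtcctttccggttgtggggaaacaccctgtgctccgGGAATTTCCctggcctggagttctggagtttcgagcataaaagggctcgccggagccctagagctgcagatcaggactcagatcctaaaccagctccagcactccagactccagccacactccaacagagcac
The motif was in 1.25% of 27457 rat promoters and in 1.28% of the 8705 promoters matched to measured genes. In the Toll-like receptor and NF-kB class it was in 5 of 24 matched promoters, those of Nfkb1 (0.21), Nfkb2 (0.47), Nfkbia (0.13), Nfkbiz (1.78) and Tnfaip3 (0.24), with the log2 difference in brackets. Among cytokine genes it was in 3 of 38, those of Cxcl1 (2.73), Cxcl10 (-0.45) and Cxcl11 (0.27). Of these 8 genes only Nfkbiz and Cxcl1 were set apart. Without control 2 Tnfaip3 was at -0.03, and with the Gapdh term it was at 0.92, Nfkb2 at -0.17, Nfkb1 at 0.36, Nfkbia at 0.02, Cxcl10 at -0.06 and Cxcl11 at -0.12. It was also in 7 of 31 promoters of the interferon and MHC class I genes. The median of that class was -0.04, -0.08 without control 2 and 0.01 with the Gapdh term. Of its 38 measured genes 5 were set apart higher (13.2%) and 3 lower (7.89%), against 12.9% and 11.9% of all genes. At an unadjusted limma p under 0.05, 4 were higher and 0 lower, against 7.08% and 6.05% of all genes. The differences in the class ran from -2.19 to 1.52. Motifs and promoters were chosen after the values were seen, and a match is a description of the letters, not a bound site.

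Genes of mitochondrial energy metabolism were mostly lower in model livers. Of 38 measured complex I genes 31 were lower and 18 set apart lower (47.4%, against 11.9% of all genes), with a median of -0.48. Complexes II to V had 32 of 43 genes lower and 13 set apart (median -0.32), and the tricarboxylic acid cycle with pyruvate oxidation 21 of 26 lower and 9 set apart (median -0.49). Without control 2 these medians were -0.48, -0.34 and -0.56. With the Gapdh term they were -0.21, -0.12 and -0.07. Ndufb6, an accessory subunit of complex I, was at 8.82, 8.66 and 8.47 in control and at 7.88, 7.28 and 6.74 in model livers. Cox6a1 of cytochrome oxidase was at 9.68, 9.58 and 9.58 against 9.21, 8.47 and 7.73, and Atp5f1a of ATP synthase at 9.94, 9.52 and 9.64 against 9.13, 8.30 and 7.03. These 3 genes differed by -0.42, -0.44 and -0.36 with the Gapdh term. Ndufb8, with a difference of -3.65 but a model mean below the filter level, was at 0.17 with the term. Ogdh, the entry enzyme of the second part of the tricarboxylic acid cycle, differed by -0.70 ± 0.22.

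Mitochondrial ribosomal proteins, which translate the proteins encoded by mitochondrial DNA, had 62 of 76 genes lower. Among them 25 were set apart lower (32.9%, against 11.9% of all genes) and 4 higher (5.26%, against 12.9%). Their median was -0.45, and -0.06 with the Gapdh term. Fatty acid oxidation and ketogenesis had 29 of 41 genes lower, 12 set apart lower (29.3%) and 1 higher (2.44%). The median was -0.37, and -0.16 with the Gapdh term. Echs1, an enzyme of the fatty acid oxidation spiral, was at 9.41, 8.71 and 8.42 against 8.29, 6.85 and 6.21, and its difference of -1.73 was -0.16 with the Gapdh term. Hadh, the next enzyme of the spiral, differed by -1.43 and Acaa2, the thiolase, by -1.14, and with the Gapdh term by -0.28 and -0.41. The part of RNA quality in these classes beyond the values with the Gapdh term was not tested, and with 3 arrays a group the term and the group are hard to separate.

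**Figure D4:**
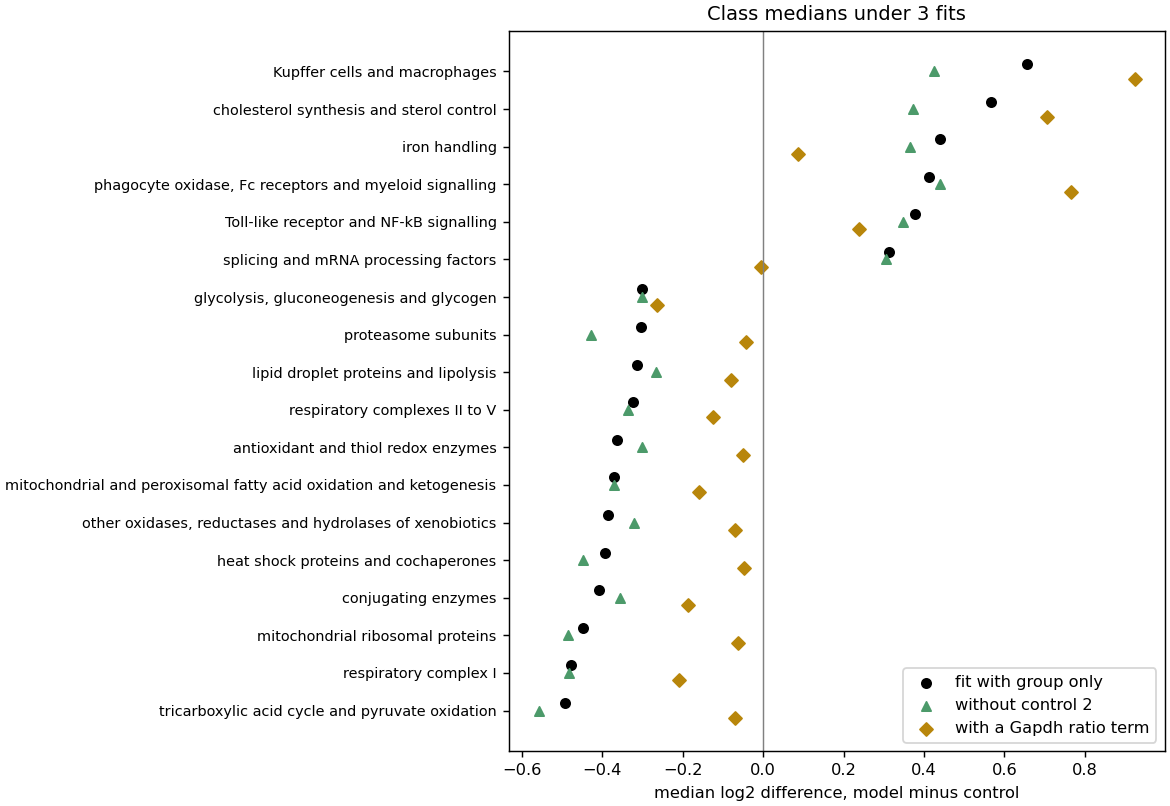
Median log2 difference, model minus control, of the 18 classes in 3 fits: group alone (black circles), without control 2 (green triangles) and with the log2 Gapdh ratio as a term (yellow diamonds). The medians of the mitochondrial classes move towards 0 with the Gapdh term, from -0.49 to -0.07 in the tricarboxylic acid cycle, and that of the phagocyte class moves from 0.41 to 0.76.

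A promoter of a complex II gene is shown for the letters that the nuclear respiratory factor NRF1 can bind. The motif was GCATGCGC, searched on both strands, and the match is in capitals. Sdhb, the iron-sulphur subunit of complex II, was at 9.53, 9.60 and 9.33 in control and at 9.22, 8.73 and 8.15 in model livers, a difference of -0.79, and of -0.13 with the Gapdh term. Its promoter lies on chromosome 5 at chr5:158547684-158547983, plus strand, build GRCr8, RefSeq.
Sdhb: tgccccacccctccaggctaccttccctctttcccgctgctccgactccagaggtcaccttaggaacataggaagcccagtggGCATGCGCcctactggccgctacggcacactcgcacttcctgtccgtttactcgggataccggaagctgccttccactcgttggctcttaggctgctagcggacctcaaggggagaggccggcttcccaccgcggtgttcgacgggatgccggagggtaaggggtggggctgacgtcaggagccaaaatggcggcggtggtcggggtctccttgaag
The motif was in 4.99% of the promoters of measured genes, in 5 of 37 of complexes II to V and in 3 of 36 of complex I. It was not particular to them: lipid droplet genes had it in 4 of 21 and translation factors in 5 of 38. The mostly higher classes of cholesterol synthesis and splicing had it in 2 of 19 and 5 of 49, and fatty acid oxidation in 0 of 37. Motifs of PU.1 and ETS factors were searched as well and are not described.

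Enzymes that handle foreign compounds were mostly lower beyond the P450 family. Of the 33 measured oxidases, reductases and hydrolases outside that family 22 were lower and 11 higher. By 2-fold or more 9 were lower and 2 higher, the largest rise being 3.17. None was set apart higher and 8 were set apart lower (24.2%, against 11.9% of all genes), with a median of -0.38, and -0.07 with the Gapdh term. Fmo1, a flavin monooxygenase of drug metabolism, was at 6.89, 8.99 and 8.45 in control and at 5.03, 5.35 and 4.69 in model livers. Its difference of -3.09 ± 0.47 was -3.56 with the Gapdh term, and with unnormalized signals it was the only probe set to pass in limma (adjusted p = 0.0385). Ephx1, the microsomal epoxide hydrolase, was at 9.86, 10.06 and 10.30 against 9.22, 7.16 and 6.73, and its difference of -2.37 was -0.77 with the Gapdh term. Of 38 conjugating enzymes 28 were lower and 10 set apart lower (26.3%), with a median of -0.41, and -0.19 with the Gapdh term. These were led by glutathione transferases: Gstm2 at 9.33, 10.27 and 9.12 against 7.80, 6.57 and 6.86, Mgst3 (-1.90), Gstm7 (-1.39) and Gstt1 (-1.31). The difference of Gstm2 was -2.50, and -1.60 with the Gapdh term, which put Gstt1 at -0.79. By contrast the 35 measured P450 genes had a median of -0.21, and 0.07 without control 2. Of these, 3 were set apart in each direction (8.57% each, against 12.9% higher and 11.9% lower of all genes). Cyp1a1, the P450 induced through the aryl hydrocarbon receptor, was higher by 1.83 and set apart, at 4.38, 4.84 and 3.49 against 7.98, 5.10 and 5.14, and by 3.94 with the Gapdh term. Antioxidant and thiol enzymes had 30 of 42 genes lower (median -0.36, and -0.05 with the Gapdh term), among them Prdx4 (-1.41) and Gpx4 (-1.18), while the haem-degrading Hmox1 was higher by 1.41, mostly in model 1. With the term these 3 genes were at -0.55, -0.30 and 2.24.

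**Figure D5:**
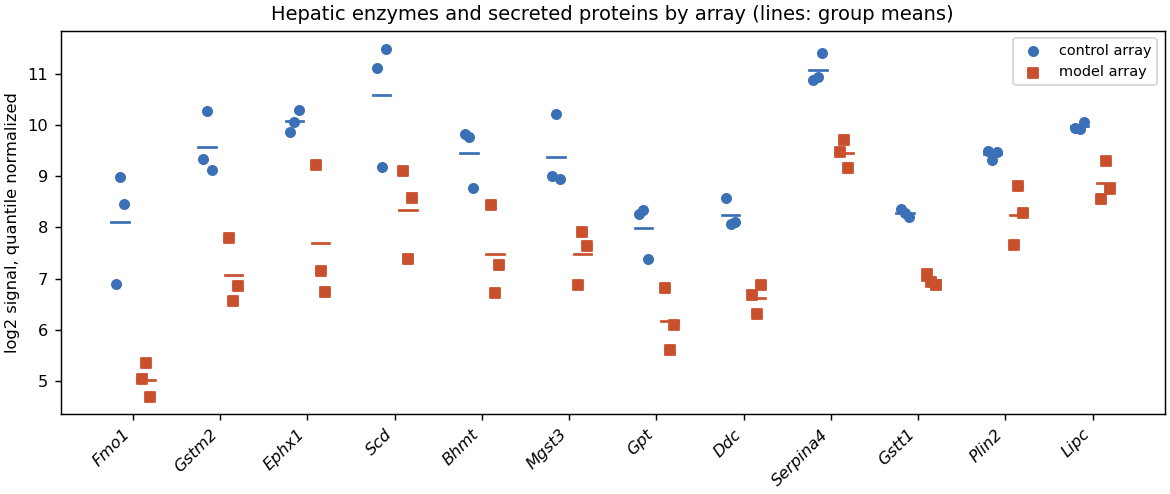
Log2 signals, quantile normalized, of 12 hepatic enzymes and secreted proteins in the 3 control arrays (blue circles) and the 3 model arrays (orange squares), with lines at the group means. In every gene shown all 3 model arrays lie below all 3 control arrays, with differences of group means from -3.09 in Fmo1 to -1.11 in Lipc.

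Lipid genes differed by branch. Scd, which makes monounsaturated fatty acids, was at 11.12, 9.17 and 11.49 in control and at 9.10, 7.38 and 8.58 in model livers. Its difference was -2.25, -2.96 without control 2, the lowest control, and -1.47 with the Gapdh term. The citrate carrier Slc25a1 differed by -0.92, but the 33 genes of fatty acid and triglyceride synthesis had a median of -0.08, -0.36 without control 2 and -0.15 with the term. Among lipid droplet genes 15 of 24 were lower, with a median of -0.31, and -0.08 with the Gapdh term. The droplet coat protein Plin2 was at 9.49, 9.31 and 9.48 against 7.66, 8.80 and 8.28. Lipc, the hepatic lipase, was at 9.93, 9.93 and 10.06 against 8.55, 9.29 and 8.75, a difference of -1.11 ± 0.23 and of -1.16 with the Gapdh term. Apoa4 (-1.05) was lower, while Pltp (1.39), the phospholipid transfer protein, was higher (0.90 with the Gapdh term). Cholesterol synthesis and sterol control had 18 of 23 genes higher, with a median of 0.57, and 0.37 without control 2. In it 6 were set apart higher (26.1%, against 12.9% of all genes) and 1 lower (4.35%, against 11.9%). In that class control 2 had the lowest score, -0.38, and with signals scaled linearly the median stood 0.124 above that of all genes. Sc5d (0.90), Stard4 (0.79) and Nsdhl (0.76), of late sterol synthesis and transport, were set apart, with Nsdhl at 0.40 with the Gapdh term. The bile acid enzyme Cyp7a1 differed by 1.17, with overlap, and by 0.68 with the term.

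Enzymes of amino acid catabolism were mostly lower. Of 65 measured genes of the urea cycle and amino acid breakdown 43 were lower. In the class 20 were set apart lower (30.8%, against 11.9% of all genes) and 4 higher (6.15%, against 12.9%). At an unadjusted limma p under 0.05, 16 were lower and 1 higher, against 6.05% and 7.08% of all genes. The median was -0.21, and -0.23 with the Gapdh term. Less the median of all genes, the class stood at -0.527 with signals scaled linearly and at -0.393 with the mean of the probe sets of each gene. Gpt, the alanine aminotransferase, was at 8.25, 8.34 and 7.37 in control and at 6.82, 5.62 and 6.10 in model livers. Bhmt, which remethylates homocysteine, differed by -1.98 and the decarboxylase Ddc by -1.63, and with the Gapdh term by -0.46 and -0.80. The urea cycle enzyme Ass1 was at 12.18, 12.08 and 12.01 against 10.92, 11.35 and 10.92, while Cps1, which starts the cycle, overlapped (0.15, and -0.17 with the Gapdh term). Glul, which fixes ammonia into glutamine, was higher by 0.71, and by 0.38 with the term. Glycolysis, gluconeogenesis and glycogen genes had a median of -0.30, with Eno1 at -1.15 (-0.55 with the term) and the insulin receptor Insr at 0.82.

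Splicing factors were more often higher than lower. Of 53 measured factors 33 were higher, 16 were set apart higher (30.2%, against 12.9% of all genes) and 8 lower (15.1%, against 11.9%), and 13 were 2-fold or more higher and 1 lower. The median of 0.31 was -0.00 with the Gapdh term and, with signals scaled linearly, 0.115 above that of all genes. Sf3b1, a component of the U2 particle, was at 7.40, 7.28 and 7.44 in control and at 8.80, 8.62 and 9.28 in model livers. The splicing kinase Clk1 (1.60), the RNA-binding proteins Hnrnpa1 (1.73) and Luc7l3 (1.58), and the helicase Ddx5 (1.42) were set apart higher. On the other side Hnrnpm (-1.26), Hnrnpab (-0.92) and the core factor Prpf8 (-0.70) were set apart lower. With the Gapdh term Sf3b1 was at 0.90, Clk1 at 0.79, Hnrnpa1 at 0.92, Luc7l3 at 0.69, Ddx5 at 0.92, Hnrnpm at -0.38 and Prpf8 at -0.38. Ccnl2 (2.44) and Pnisr (2.14), which act with splicing factors, were among the largest differences outside the lists, and were at 1.29 and 1.25 with the term.

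Genes of protein synthesis and turnover were mostly lower. Translation factors had 35 of 42 genes lower, with a median of -0.36, and -0.04 with the Gapdh term. Among them 14 were set apart lower (33.3%, against 11.9% of all genes) and 2 higher (4.76%, against 12.9%). Proteasome subunits had 15 of 37 set apart lower (40.5%) and 3 higher (8.11%), with a median of -0.30, and -0.04 with the term. Psmd1, a scaffold of the proteasome cap, was at 7.24, 7.16 and 6.94 against 6.53, 6.07 and 5.63, and differed by -1.04, or -0.68 with the term. Heat shock proteins and cochaperones had 33 of 40 genes lower, with a median of -0.39, and -0.05 with the term. Model 1 overlapped the controls in the class score of the translation factors, at -0.07 against -0.08 for the lowest control. The class scores also overlapped for cytosolic ribosomal proteins (median -0.13, -0.21 without control 2 and 0.09 with the term). So did those for genes of folding in the endoplasmic reticulum (0.02, 0.03 without control 2 and 0.10 with the term).

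Iron handling and secreted proteins differed by gene. Of 23 iron genes 16 were higher, with a median of 0.44, and 0.09 with the Gapdh term. In the class 7 were set apart higher (30.4%, against 12.9% of all genes) and 1 lower (4.35%, against 11.9%). Slc39a14, an importer of iron and zinc, was at 8.63, 8.55 and 8.59 in control and at 9.64, 9.26 and 9.39 in model livers. The metalloreductase Steap4 (1.19) and ceruloplasmin, Cp (0.50), were also set apart higher. Coagulation and complement factors had 10 of 42 set apart higher (23.8%), led by complement C5 (1.05), and 2 lower (4.76%). Their median was 0.03 (0.07 without control 2 and 0.10 with the Gapdh term). The lipopolysaccharide-binding acute-phase protein Lbp was at 8.98, 9.48 and 9.11 against 11.62, 9.83 and 9.69, while the acute-phase class as a whole had a median of -0.09, and 0.01 with the term. Serpina4, the kallikrein inhibitor kallistatin, was at 10.88, 10.93 and 11.40 against 9.48, 9.71 and 9.16, and the vitamin E carrier Afm differed by -1.42.

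Circadian and hormone genes varied within their classes. The repressors Per1 (1.22) and Per2 (1.28) were set apart higher, Nr1d2 was at 4.87, 4.01 and 5.54 against 7.87, 5.47 and 6.80, and Bmal1, the activator they oppose, was set apart lower (-0.83). With the Gapdh term Per1 was at 1.92, Per2 at 0.76 and Bmal1 at -0.34. The class of 20 clock genes had a median of 0.12, and 0.37 with the term, and sampling time is not known here. In the growth hormone axis the signal transducer Stat5b (-1.12) and the feedback inhibitor Socs2 (-1.06) were lower. The transcription factor Prox1 was higher by 1.16. Stat5b was at -0.50 and Prox1 at 0.47 with the Gapdh term.

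Among the largest differences outside these classes was Slfn4, a Schlafen gene of myeloid cells, at 6.43, 5.95 and 7.07 in control and at 8.90, 10.08 and 9.91 in model livers. Its relative Slfn9 (2.70), the myeloid kinase Fes (2.66), the myeloid nuclear protein Mnda (2.61) and the leukocyte integrin activator Fermt3 (2.18) were also set apart higher. Zinc finger genes Zfp386 (2.90) and Zfp292 (2.33) were higher too. On the lower side stood the nucleotide hydrolase Dnph1 (-2.44), the GABA transaminase Abat (-1.69) and the leucine-degrading enzyme Ivd (-1.46). Without control 2 Mnda was at 1.55. With the Gapdh term Slfn4 was at 1.69, Slfn9 at 1.75, Fes at 1.51, Abat at -0.59 and Ivd at -0.79.

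Markers of other cells were mixed. Of all genes 12.9% were set apart higher and 11.9% lower. T and natural killer cell markers had 16 of 21 genes higher, with a median of 0.33, and -0.10 without control 2. In each direction 1 was set apart (4.76%). The coreceptor Cd8a was set apart higher (1.03, and 0.40 with the Gapdh term) and the cytotoxic granule protease Gzmb lower (-1.57), with a model mean below the filter level. B and plasma cell markers had 8 measured genes with a median of 0.76, and 0.26 with the Gapdh term. Of these 2 were set apart higher (25%) and 1 lower (12.5%). Mzb1 (1.63) overlapped between the groups. Endothelial markers were split, with 12 higher and 11 lower, of which 4 were set apart higher (17.4%) and 2 lower (8.70%). Their median was 0.22 (0.14 without control 2 and 0.35 with the Gapdh term). Less the median of all genes it was 0.00221 without model 1. The scavenger receptors Stab1 (1.12) and Stab2 (0.63) were set apart higher, and at 0.61 and 0.96 with the Gapdh term, while the endocytosis protein Ehd3 differed by -1.56 with overlap. Stellate cell and matrix genes had a median of -0.15, 0.03 without control 2 and -0.09 with the term, with Col3a1 at 0.81 (0.53 with the term) and Col1a2 at -0.77. The MHC class II class had 12 of 12 genes higher but 2 set apart (16.7%). Its median was 0.34, 0.19 without control 2 and 0.90 with the Gapdh term. Male-predominant liver genes had a median of -0.88 with control 2, of 0.25 without it and of -2.11 with the Gapdh term.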

How the data were processed

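Biotin-labelled liver RNA was hybridised to one array per rat, per the labels' protocols. The values are the deposited signal intensities, made with GCOS 1.2 per the submitters' processing notes. GCOS settings and any scaling target are not given in the sources used here, and the intensities showed no common scale between arrays. Of 31099 probe sets 57 controls were left out. In the platform annotation 20826 of the rest had 1 gene symbol, 436 several and 9780 none, and only the first kind was named. Intensities were taken to log2 and quantile normalized over 9 arrays, which removes any difference in total RNA. limma 3.58.1 (R 4.3.3; lmFit, eBayes with an intensity trend, two-sided) was fitted over all 9 arrays, contrast model minus control, with Benjamini-Hochberg adjustment over 18625 probe sets. Over the 122 genes named, adjusted p values were 0.219 to 1. The fit was run on simulated data with known changes, drawn independently for each probe set. Those data held no difference between arrays in RNA quality or sex-linked transcripts, so they do not bear on these. The replicates are separate rats per the labels. The number of arrays limits the precision.

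The comparison and the 51 gene lists were chosen with earlier results of these data known, and no list was tested as a set. In each list, genes set apart with an unadjusted p under 0.05 were candidates for naming, up to 4 in each direction by size and filled to 2 by the smallest p. To these came up to 15 candidates in each direction over all genes, with an unadjusted p under 0.01 and both means above the filter. Only a part of the candidates is named in the text, and no rule set which. Outside that rule, and chosen after their values were seen, were Xist, Eif2s3y, Cyp2c11, Cyp2c12, Alb, Cps1, Cybb, Fcer1g, Itgal, Irf8, Syk, C1qa, Lyz2, Clec4f, S100a8, Lcn2, Tlr2, Nfkb1, Nfkb2, Nfkbia, Tnfaip3, Cxcl10, Cxcl11, Sdhb, Cyp1a1, Cyp7a1, Ass1, Ddx5, Lbp, Per1, Per2, Bmal1 and Stab2. The alternatives were other scalings, filters and fits, an offset of 0.629 before log2 (the 5th percentile of signals), terms for the Gapdh ratio and for control 2 with drug 3, and each array left out in turn.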

Additional observations from a re-analysis of the deposited data

How the results depend on the processing

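With limma 0 probe sets passed, and 1 without normalization (Fmo1), 4 with array weights, 3 with the replicate number as a block, and 0 to 1 with each array left out. Whether the replicate numbers pair the animals cannot be settled with 3 arrays a group, and the fit reported has no replicate block. Same-numbered control and model arrays correlated at 0.195, -0.00522 and 0.168 in their deviations, for replicates 1, 2 and 3. Of the 3 model arrays 2 correlated best with their own number, and so did 2 of the 3 control arrays. Probe sets at an unadjusted p under 0.05, 2245 in the fit reported, numbered 4031 with array weights, 3633 with the replicate block, 1393 with the mean of the probe sets of a gene, 1247 with a minimum fold of 2, 1298 without control 2 and drug 3, and 1156 (without model 3) to 3268 (without drug 1) with each array left out. Leaving out control 1 gave 1447 and control 2 gave 1481. Genes set apart numbered 1400 without normalization and 2589 to 4797 with 1 array fewer, where fewer arrays must be separated.

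Class medians are given here less the median of all genes, a form chosen after the values were seen. Of 1275 class values over 51 classes and 25 alternatives, 1140 moved by less than the SD between arrays of a group and 135 moved further. Signs changed in 64, of which 41 were in classes within 0.1 of all genes. The cause was not tested. Some alternatives could not move a class value. Dropping the intensity trend or the moderation changes only the error, and the replicate block is balanced over the groups. Leaving out a drug array changes only which probe set stands for a gene. The linear scalings give identical values. These counts are therefore no measure of robustness. Without normalization, with median centring and with trimmed mean scaling alike, the values were -0.65 for other oxidases, -0.71 for conjugating enzymes, -0.0606 for bile acids, 0.12 for cholesterol, -0.61 for fatty acid oxidation, -0.25 for apolipoproteins, -0.44 for glycolysis, -0.53 for amino acids, -0.85 for the tricarboxylic acid cycle, -0.68 for complexes II to V, -0.52 for cytosolic ribosomes, -0.48 for the proteasome, -0.25 for endoplasmic reticulum folding, -0.0523 for nuclear receptors, 0.29 for iron, 0.20 for the cell cycle, 0.12 for splicing, -0.30 for vesicle transport and -0.49 for bile duct cells. The signs of bile acids, endoplasmic reticulum folding, nuclear receptors and coagulation (-0.0492) turned there.

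With the Gapdh term they were -0.0653 for other oxidases, -0.18 for conjugating enzymes, -0.15 for fatty acid oxidation, -0.0759 for lipid droplets, -0.0657 for the tricarboxylic acid cycle, -0.21 for complex I, -0.12 for complexes II to V, -0.0603 for mitochondrial ribosomes, -0.0391 for the proteasome, -0.0464 for antioxidants, -0.0439 for heat shock, 0.10 for coagulation, 0.37 for the clock, 0.09 for iron, 0.77 for phagocytes, 0.90 for MHC class II, -0.0141 for p53 targets, -0.0362 for translation and 0.26 for B cells. Signs turned in lysosomes (0.16), immediate early genes (-0.14), cytosolic ribosomes (0.0939), acute-phase proteins (0.0153), interferon (0.0101), nuclear receptors (-0.0119), the cell cycle (-0.10), splicing (-0.00159), vesicle transport (0.0556), bile duct cells (0.13) and erythroid cells (0.0688).

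Without a filter the sign turned for pancreas (-0.0244), kidney, muscle, fat and gut (-0.0323), nuclear receptors (-0.045) and immediate early genes (-0.00861). With the 60th percentile filter the cell cycle (-0.33), nuclear receptors (-0.0547) and endoplasmic reticulum folding (-0.00582) turned, and B cells stood at 1.22 and pancreas at 2.14. Array weights gave -0.28 for other oxidases and -0.29 for p53 targets, and turned endoplasmic reticulum folding (-0.0588) and immediate early genes (-0.0632). The 6 arrays alone gave -0.23 for lipid droplets. The mean of the probe sets gave -0.23 for lipid droplets, -0.39 for amino acids, 0.26 for iron and -0.40 for hepatocytes, and turned nuclear receptors (-0.0882), the clock (-0.0858) and endoplasmic reticulum folding (-0.0536). Without control 2 and drug 3, P450 genes (0.0621), stellate cells (0.0152), T cells (-0.105) and male-predominant genes (0.237) turned, lipid droplets stood at -0.23 and nuclear receptors at 0.0653. A term for these 2 arrays turned P450 genes (0.0415), male-predominant (0.265) and female-predominant (-0.00337) and immediate early genes (-0.00542), and gave 0.0886 for cholesterol.

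With each array left out, ranges were -0.30 to 0.0621 for P450 genes (positive without control 2), -0.52 to -0.26 for other oxidases, -0.46 to -0.28 for conjugating enzymes, -0.0745 to 0.13 for bile acids, -0.39 to -0.23 for lipid droplets, -0.36 to -0.21 for glycolysis, -0.41 to -0.18 for amino acids, -0.52 to -0.24 for heat shock, -0.0101 to 0.14 for coagulation, -0.0934 to 0.12 for nuclear receptors, 0.31 to 0.43 for iron, 0.40 to 0.69 for phagocytes, -0.20 to -0.0142 for interferon, 0.043 to 0.20 for the cell cycle, -0.12 to 0.22 for immediate early genes, -0.62 to -0.30 for translation, 0.00221 to 0.26 for endothelium, -0.20 to 0.0152 for stellate cells, -0.50 to -0.15 for bile duct cells and 0.16 to 1.47 for pancreas.

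Of 3040 values of named genes, on the same scale, 28 changed sign. The alternatives that could not move a class value are counted here too. C1qa was 0.26 with array weights, 0.0329 with the probe set mean, 0.58 with the Gapdh term and -0.47 to 0.41 with 1 array fewer. Lyz2 was 0.0234 with the probe set mean, 0.10 with the Gapdh term and -0.24 to 0.14 with 1 array fewer. The probe set mean gave -1.09 for Cps1 and -0.31 for Glul. The Gapdh term gave 1.40 for Lcn2, -0.17 for Nfkb2, -0.12 for Cxcl11, 0.17 for Ndufb8 and -0.16 for Cps1. Cyp2c11 was 0.67 without control 2 and drug 3, 0.77 with the term for them, and -3.44 to 0.67 with 1 array fewer. Tnfaip3 was -0.0393 without control 2 and drug 3, -0.10 with the term for them, and -0.38 to 0.71 with 1 array fewer. Lcn2 was -3.62 to 1.13 with 1 array fewer.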
